A study of Mus musculus with 16 samples.

Results

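The collagen genes are the protein-coding mouse genes whose symbols consist of Col, a number, the letter a and a number. The deposited counts table has 44 of them among its 56748 genes, and 40 of the 44 had at least 1 read in any sample. The rule uses the symbol and no measured value. TM4, a mouse cell line of Sertoli cell origin, was the host for a test of what the killifish growth factor gene *gdf6Y*, the Y-chromosomal allele that makes turquoise killifish male, does to the transcriptome of a somatic testis cell. The cells received 2.5 µg of plasmid DNA per well with a lipid reagent, and RNA was taken 24 h later. The plasmid was the empty expression vector (EV, 6 samples), the same vector type carrying *gdf6Y* (5 samples) or one carrying del9, a *gdf6Y* variant with a short in-frame deletion in the prodomain (5 samples). Lipofection and the vector backbone are shared by all groups. EV controls for these, and del9 in addition carries a *gdf6Y* insert. The share of cells that took up plasmid is not given in the sources used here, the cells are a single line, and nothing says whether replicates came from separate cultures, so that p-values measure the spread between these samples, which may be technical.

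Collagens are secreted proteins of the extracellular matrix in which chains with a regularly repeated glycine wind into a triple helix. Fibrillar collagens (types I, II, III, V, XI, XXIV and XXVII) assemble into the fibrils of connective tissue, with type I as the most abundant and types III and V as partners that set fibril diameter. Basement membrane collagens, led by the type IV network, form sheets under epithelia, and in the testis they lie in the wall of the seminiferous tubule, to which Sertoli cells and the peritubular myoid cells around them contribute. The remaining collagens bind fibrils (the FACIT group), form beaded filaments (type VI), build short-chain networks (types VIII and X), span the plasma membrane or anchor basement membranes (type VII).

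The gene counts of a sample summed to 21486850 to 25844048 in EV, 22349497 to 26444903 with *gdf6Y* and 24608410 to 26071045 with del9. Of 11 Sertoli cell markers, 5 had at least 10 normalized counts in EV and 2, *Wt1* and *Dmrt1*, had no read in any sample. Of 10 markers of fibroblasts and peritubular myoid cells, 7 had at least 10, and their summed normalized count was 12772 to 13276 in EV, 12940 to 13819 with *gdf6Y* and 12836 to 13651 with del9. In this list, of 9 genes tested against EV, 1 was higher and 2 were lower with *gdf6Y*, and 1 was higher and 2 were lower with del9. Over all genes tested, 1.7% were higher and 3.38% lower with *gdf6Y*, and 4.82% and 4.43% with del9. Whether the list exceeds these shares was not tested. The summed count of the Sertoli list was 1682 to 1769.5 in EV, 1497 to 1619 with *gdf6Y*, below every EV sample, and 1570.4 to 1734 with del9. Its member *Gata4* was lower in *gdf6Y* than EV (log2 fold change -0.20, adjusted p = 9.98e-05 by edgeR). The granulosa cell list summed to 398 to 562 in EV, 388 to 614 with *gdf6Y* and 528 to 725 with del9. Its member *Fst* was higher in del9 than EV (0.44, adjusted p = 2.13e-18 by edgeR) and lower in *gdf6Y* than del9 (-0.29, adjusted p = 2.26e-06). The part of these shifts in the collagen results was not tested. In bulk samples, fewer cells of a type and less RNA per cell cannot be told apart. The sample *gdf6Y* replicate 1 stood apart from the other *gdf6Y* samples in several genes, at 6008 normalized counts of the nuclear RNA *Malat1* against 3652 to 3834 in the others, 4806 to 6178 in EV and 3695 to 4330.4 in del9. For the named collagen genes, calls that change without this sample are given with and without it.

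The collagen reads of TM4 cells came mostly from 14 of the 44 genes. In EV samples, collagen genes took up 0.961% ± 0.0181 (SD, n = 6) of all counted reads. Of the 44 genes, 14 had a mean of at least 1000 normalized counts (counts divided by the effective library size and multiplied by its mean over the 16 samples), 2 had 100 to 1000, 9 had 10 to 100, 5 had 1 to 10, 7 were above 0 but below 1 and 7 were at 0. Fibrillar genes made up 70.9% ± 0.748 (SD, n = 6) of the collagen reads, basement membrane genes 15.1% ± 0.489 (SD, n = 6) and all others 14.0% ± 0.287 (SD, n = 6). At least 1000 normalized counts were reached by 6 of 11 fibrillar genes, 3 of 8 basement membrane genes, 3 of 6 type VI genes, 1 of 9 FACIT genes, 1 of 3 short-chain genes and none of the 4 transmembrane genes.

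Levels between genes are compared as RPKM (reads normalized to kilobases of exons and to library size, the latter scaled by the TMM method), and a second value per kilobase of the longest annotated transcript shows how far the level depends on the length that is used. *Col1a1* and *Col1a2* encode the chains of type I collagen and led the repertoire. The level of *Col1a1* (chromosome 11 of GRCm39, 94827050 to 94843868) was 324 ± 10.5 RPKM (SD, n = 6) in EV, rank 56 among protein-coding genes. That of *Col1a2* (chromosome 6, 4504814 to 4541555) was 220 ± 6.80 RPKM (SD, n = 6), rank 105. Which of these chains is on top depends on the length: all annotated exons of *Col1a2* span 12650 bases but its longest transcript only 5437, and per kilobase of the longest transcript *Col1a2* stood at 511 and *Col1a1* at 359. In reads, *Col1a2* was ahead, with 29.0% of all collagen reads against 22.2%.

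Sequence features of this class can be read from its exons. A fibrillar collagen gene is built from many short coding exons. Exons were counted by length alone, and 54 bases is a length that fits whole Gly-X-Y triplets. Exons of exactly 54 bases made up 47.1% of the 647 coding exons of fibrillar genes (1 canonical transcript per gene of the GENCODE annotation). The share was 4.24% of 377 in basement membrane genes, 15.2% of 975 in the other collagen genes and 0.668% of 197910 in all protein-coding genes. Whether each counted exon encodes such triplets was not checked. A high share was not particular to the fibrillar genes. The FACIT gene *Col22a1* had 28 such exons among 63, against 21 of 51 in *Col1a1*, while the FACIT gene *Col12a1* had 4 of 65. The longest uninterrupted run of Gly-X-Y triplets in the translated transcript was 216 to 344 triplets (median 338) in the fibrillar genes and 30 to 66 in the basement membrane genes, whose triple helix is interrupted. In the FACIT genes this run was 32 to 113 triplets. The following exons from the genes of types I and III are shown because these types carry most fibrillar reads and the result for *Col3a1* below; they are printed 5′ to 3′ on the coding strand (+ in each case, GRCm39) with glycine codons in capitals. They lie at chr11:94830730-94830783 (coding exon 8 of 51 in *Col1a1*), chr6:4515481-4515534 (coding exon 8 of 52 in *Col1a2*) and chr1:45364520-45364573 (coding exon 6 of 51 in *Col3a1*).
Col1a1: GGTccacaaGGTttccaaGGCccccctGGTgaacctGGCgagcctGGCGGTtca
Col1a2: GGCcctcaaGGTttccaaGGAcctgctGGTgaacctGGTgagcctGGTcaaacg
Col3a1: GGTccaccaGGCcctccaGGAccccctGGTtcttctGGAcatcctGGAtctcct
Glycine codons stand at the start of every triplet in each exon, 6 in *Col1a2* and *Col3a1* and 7 in *Col1a1*, where a further one falls inside the last triplet.

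Among the other fibrillar genes, those of type V, which co-assembles with type I, were next. *Col5a2* stood at 86.5 ± 3.18 RPKM and *Col5a1* at 49.6 ± 1.72 RPKM (SD, n = 6 each), while *Col5a3*, a minor type V chain, was at 2.62 ± 0.242 RPKM. *Col3a1*, the sole chain of type III collagen, reached 26.9 ± 1.29 RPKM (48.9 per kilobase of the longest transcript), and *Col11a1*, a type XI chain found at the core of fibrils, 15.0 ± 0.452 RPKM. Its partner *Col11a2* had 28 to 53 reads per sample. The chain of cartilage collagen, *Col2a1*, had 0 to 3 reads per sample over all 16 samples, and *Col24a1* 1 to 6. The fibrillar genes above 10 RPKM were thus *Col1a1*, *Col1a2*, *Col5a2*, *Col5a1*, *Col3a1* and *Col11a1*.

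In the basement membrane class, the widely expressed type IV chains led and the tissue-restricted ones had few or no reads. *Col4a1* and *Col4a2*, whose products form the common type IV heterotrimer, stood at 92.5 ± 2.46 and 82.2 ± 1.86 RPKM (SD, n = 6 each) and their reads were in a ratio of 1.17 ± 0.0172 per EV sample. They lie head to head on chromosome 8, and their start sites in the RefSeq promoter table overlap by 21 bases. *Col4a5* was at 16.2 ± 0.631 RPKM. *Col4a6*, its head-to-head neighbour on the X chromosome with a start site 1343 bases away, had a mean of 38.8 normalized counts (28 to 50 reads per sample) against 3718 ± 145 (SD, n = 6) for *Col4a5*. Chains of the kidney and lens type were at the limit of detection: *Col4a3* had 0 to 3 reads per sample and *Col4a4* 0 in all 16 libraries, which together hold 394478886 reads, so that 3 counts, or 0.00761 CPM, is the upper limit that a count of 0 allows (counting error only). The same limit holds for *Col13a1*, *Col25a1* and *Col26a1*. *Col18a1*, source of endostatin, had 286 ± 25.8 normalized counts, and *Col15a1* 0 to 1 reads per sample.

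Outside these classes, *Col8a1*, a short-chain collagen of vessel walls and of Descemet's membrane, was the most abundant gene at 71.7 ± 1.54 RPKM, while its partner *Col8a2* had 0 to 1 reads per sample. The chains of type VI, which link cells to the fibrillar matrix, were all present: *Col6a1* at 36.3 ± 1.17, *Col6a2* at 14.0 ± 0.334 and *Col6a3* at 12.6 ± 0.520 RPKM (SD, n = 6 each). *Col6a4* had 6 to 17 reads per sample, and *Col6a5* and *Col6a6* at most 2. Among the fibril-associated collagens, *Col16a1* was at 34.6 ± 0.646 RPKM, *Col20a1* at 0.635 ± 0.0772 RPKM and *Col12a1*, a frequent companion of type I fibrils, had 4 to 16 reads per sample. The hypertrophic cartilage gene *Col10a1* had 2 to 14 reads per sample and the epidermal anchoring fibril gene *Col7a1* 42 to 75. The plot of levels by class shows this step between 14 genes above 12 RPKM and the rest below 3.

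Across the plasmids, the proportions of the classes were close, and the collagen total was lowest with del9. All collagen genes together took up 0.961% ± 0.0181 (n = 6) of reads in EV samples. The share was 0.939% ± 0.0339 with *gdf6Y* and 0.913% ± 0.0256 with del9 (SD, n = 5 each). The ranges overlapped: EV samples lay between 0.940% and 0.980%, *gdf6Y* samples between 0.910% and 0.996% and del9 samples between 0.888% and 0.948%. Fibrillar genes made up 70.9% of the collagen reads in EV, 71.6% with *gdf6Y* and 71.1% with del9. Basement membrane genes made up 15.1%, 14.6% and 15.2%, and the other collagen genes 14.0%, 13.9% and 13.7%. These shares are given as a description, without a test.

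In *gdf6Y* against EV, *Col3a1* rose and *Col6a3*, *Col5a3*, *Col4a2*, *Col4a1* and *Col11a1* fell, in each case by less than 15%. Of 39 collagen genes with at least 1 read in any sample of this comparison, 1 was higher and 5 were lower with the quasi-likelihood test of edgeR (Benjamini-Hochberg adjusted over all genes, threshold 0.05). Of all 26316 genes tested, 1.7% were higher and 3.38% lower. As most collagen calls are at high counts, the shares among genes with a mean of at least 1000 counts are closer to the members': 6.28% of these 5386 genes were higher and 12.3% lower, against 1 and 4 of the 14 collagen genes at such counts (28.6% lower). Among the 25 collagen genes with a mean of at least 10 counts, 7 had a positive and 18 a negative log2 fold change, with a median of -0.05 against 8e-04 over the 12587 genes at such counts. At an unadjusted p-value below 0.05 there were 2 higher and 9 lower collagen genes. The share of all genes at that unadjusted threshold was not counted, so these numbers have no background. DESeq2 called 1 higher and 2 lower, among 1280 genes called in all.

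*Col6a3*, the largest chain of type VI collagen (chromosome 1 of GRCm39, 90693645 to 90771780), changed most. Its normalized counts in EV had a lowest value of 3460, a median of 3750 and a highest value of 3909, those of *gdf6Y* replicates 1 to 5 were 3909, 3198, 2996, 2966 and 3019, and those of del9 replicates 1 to 5 were 3145, 3815, 3483, 3184 and 3443. The values of *gdf6Y* replicates 2 to 5 were lower than every EV sample, whereas replicate 1 was as high as the highest EV sample, so that the groups overlapped. The log2 fold change of *gdf6Y* against EV was -0.21 (SE 0.03, Benjamini-Hochberg adjusted p = 6.69e-10 by the quasi-likelihood test of edgeR), a decrease to 0.862 of the EV level. Without *gdf6Y* replicate 1 it was -0.29 (adjusted p = 2.01e-19 by edgeR). It passed the threshold in each of the 11 fits that left out 1 sample and in each of 8 other fits, with values from -0.29 to -0.17. By DESeq2, 1 of these 8 fits, the adjusted p-value was only 0.0363, so that the strength of the call depends on the tool.

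*Col3a1* was the collagen gene that rose. Its normalized counts in EV had a lowest value of 6284, a median of 6824 and a highest value of 7311, those of *gdf6Y* replicates 1 to 5 were 7605, 7172, 6974, 7379 and 7870, and those of del9 replicates 1 to 5 were 7291, 6925, 6682, 6927 and 6942. Replicates 1, 4 and 5 of *gdf6Y* lay above every EV and every del9 sample, and replicates 2 and 3 lay within the EV range. A single sample set each end of that range, EV replicate 3 the lowest and EV replicate 5 the highest, and the other EV samples lay at 6775 to 6879. Against EV, its log2 fold change was 0.12 (SE 0.03, Benjamini-Hochberg adjusted p = 5.06e-04 by the quasi-likelihood test of edgeR), or 1.09-fold. It passed the threshold in all 11 fits that left out 1 sample (0.10 to 0.14) and in 8 other fits. By DESeq2, 1 of these 8 fits, the adjusted p-value was 0.0147. *Col3a1* lies on chromosome 1 from 45350698 to 45395840, beside *Col5a2* (45412554 to 45542442, on the opposite strand). In the GENCODE release used here, an exon of another gene overlaps 141 of its bases on the same strand. Whether the release used for counting has this overlap, in which case reads on it were discarded, was not checked. The neighbour *Col5a2* did not pass the threshold against EV, with a log2 fold change of 0.01 and a 95% interval from -0.04 to 0.06.

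The remaining calls against EV were weaker. *Col5a3*, the minor type V chain, had EV counts of 404, 437 and 519 (lowest, median and highest), *gdf6Y* counts of 380.5, 416, 427, 382 and 365 in replicates 1 to 5 and del9 counts of 416, 436, 472, 432 and 425. Replicates 1, 4 and 5 of *gdf6Y* lay below every EV sample. Its log2 fold change was -0.17 (SE 0.05, adjusted p = 0.0275 by edgeR), and it was not past the threshold without EV replicate 1 or 4 or without *gdf6Y* replicate 1, 4 or 5 (adjusted p up to 0.296), nor with DESeq2 (adjusted p = 0.0721).

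The type IV pair fell side by side. *Col4a2* had EV counts of 14177, 14524 and 14990 (lowest, median and highest), *gdf6Y* counts of 14544, 13910.0, 13879, 13397 and 12612 in replicates 1 to 5 and del9 counts of 13865, 14399, 14208, 13522 and 13809. *Col4a1* had EV counts of 16533, 16880.0 and 17784, *gdf6Y* counts of 17401, 16096, 15940.0, 16105 and 14949 and del9 counts of 16695, 16692, 16874, 16542 and 16054. In both genes, replicates 2 to 5 of *gdf6Y* lay below every EV sample and replicate 1 lay within the EV range. *Col4a2* had a log2 fold change of -0.09 (SE 0.03, Benjamini-Hochberg adjusted p = 0.0162 by the quasi-likelihood test of edgeR) and *Col4a1* of -0.08 (SE 0.03, adjusted p = 0.039 by edgeR). The call of *Col4a2* was lost without EV replicate 1 or 3 or *gdf6Y* replicate 4 or 5, and that of *Col4a1* without EV replicate 1, 3 or 4 or any of *gdf6Y* replicates 2 to 5. DESeq2 called *Col4a2* (adjusted p = 0.0392) and not *Col4a1* (adjusted p = 0.0811). Their adjusted p-values rose to at most 0.282 and 0.381 in these fits, and without *gdf6Y* replicate 1 they were 0.00115 and 0.00144. *Col4a5* had a log2 fold change of similar size, -0.08, and did not pass (adjusted p = 0.104 by edgeR). Without *gdf6Y* replicate 1 its log2 fold change was -0.10 and it passed (adjusted p = 0.0159 by edgeR).

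*Col11a1* (chromosome 3 of GRCm39, 113824134 to 114014367) was lower than EV with either insert. Its EV counts were 4528, 4748 and 4948 (lowest, median and highest), the *gdf6Y* counts were 4919, 4307, 4261, 4471 and 4167 in replicates 1 to 5, and the del9 counts were 4406, 4374, 3918, 4198 and 3996. Every del9 sample and replicates 2 to 5 of *gdf6Y* lay below every EV sample. Against EV, the log2 fold change was -0.10 with *gdf6Y* (SE 0.03, Benjamini-Hochberg adjusted p = 0.0199 by the quasi-likelihood test of edgeR). With *gdf6Y* replicate 1 left out it was -0.13 (adjusted p = 1.87e-04 by edgeR). With del9 it was -0.18 (SE 0.03, adjusted p = 1.6e-08 by edgeR). The first call was lost without EV replicate 1 or 4 or *gdf6Y* replicate 2, 3 or 5 (adjusted p up to 0.175) and with DESeq2 (adjusted p = 0.0653), while the second was kept in all 11 fits that left out 1 sample and in 8 others. These comparisons share the EV samples.

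In del9 against EV, 0 collagen genes were higher and 6 were lower: *Col11a1*, *Col8a1*, *Col6a1*, *Col6a3*, *Col5a2* and *Col4a5*. Of 26226 genes tested in edgeR, 4.82% were higher and 4.43% lower, and among the 5456 genes with a mean of at least 1000 counts 17.2% were higher and 11.6% lower, against 0 and 6 of the 14 collagen genes at such counts (42.9% lower). The 24 collagen genes with a mean of at least 10 counts had 5 positive and 19 negative log2 fold changes, with a median of -0.06, against 0.01 over all genes at such counts. At an unadjusted p-value below 0.05, 1 was higher, *Col6a6* with at most 2 reads per sample, and 10 were lower. Here too the share of all genes at that threshold was not counted. DESeq2 called 0 higher and 7 lower, among 2051 genes called in all.

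*Col8a1* (chromosome 16 of GRCm39, 57444621 to 57575100) had EV counts of 13499, 13815 and 14383 (lowest, median and highest), del9 counts of 13051, 12832, 12159, 13083 and 12087 in replicates 1 to 5 and *gdf6Y* counts of 13932, 12839, 13234, 13736 and 12937. Every del9 sample lay below every EV sample, and *gdf6Y* samples spread over both ranges. The log2 fold change of del9 against EV was -0.13 (SE 0.02, Benjamini-Hochberg adjusted p = 1.39e-05 by the quasi-likelihood test of edgeR).

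Type VI genes fell as well. *Col6a1* (chromosome 10, 76543440 to 76562283) had EV counts of 5001, 5263 and 5401 (lowest, median and highest), del9 counts of 4976, 4660, 4836, 4850.0 and 4828 and *gdf6Y* counts of 5193, 4795, 5084, 4984 and 4776 in replicates 1 to 5. The highest del9 sample was just under the lowest EV sample, so that the groups did not overlap. With *gdf6Y*, *Col6a1* did not pass against EV (log2 fold change -0.07, adjusted p = 0.122 by edgeR). It passed without *gdf6Y* replicate 1 (-0.08, adjusted p = 0.0433 by edgeR). Its log2 fold change with del9 was -0.11 (SE 0.03, Benjamini-Hochberg adjusted p = 9.78e-04 by the quasi-likelihood test of edgeR). That of *Col6a3* was -0.13 (SE 0.03, adjusted p = 2.03e-04 by edgeR and 0.0171 by DESeq2), with del9 replicates 2 and 3 inside the EV range and the others below it. *Col6a2*, the neighbour of *Col6a1*, did not pass (log2 fold change -0.06, 95% interval from -0.11 to -0.0035, adjusted p = 0.221 by edgeR). The calls of *Col11a1*, *Col8a1*, *Col6a1* and *Col6a3* were kept in every fit that left out 1 sample and in 8 other fits.

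*Col5a2* and *Col4a5* were nearer to the threshold. *Col5a2* had EV counts of 22804, 23874 and 24827 (lowest, median and highest) and del9 counts of 23915, 22563, 21677, 21818 and 22418 in replicates 1 to 5. *Col4a5* had EV counts of 3568, 3703 and 3928 and del9 counts of 3795, 3326, 3502, 3552 and 3343. In each gene, del9 replicate 1 lay inside the EV range and the other del9 samples below it. Both had a log2 fold change of -0.08 (SE 0.02 and 0.03, adjusted p = 0.0115 and 0.0369 by edgeR). *Col5a2* was not past the threshold without del9 replicate 3 or 4 (adjusted p up to 0.0857), and *Col4a5* was not without EV replicate 1, 3 or 4 or del9 replicate 2, 3 or 5 (adjusted p up to 0.188).

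**Figure D1:**
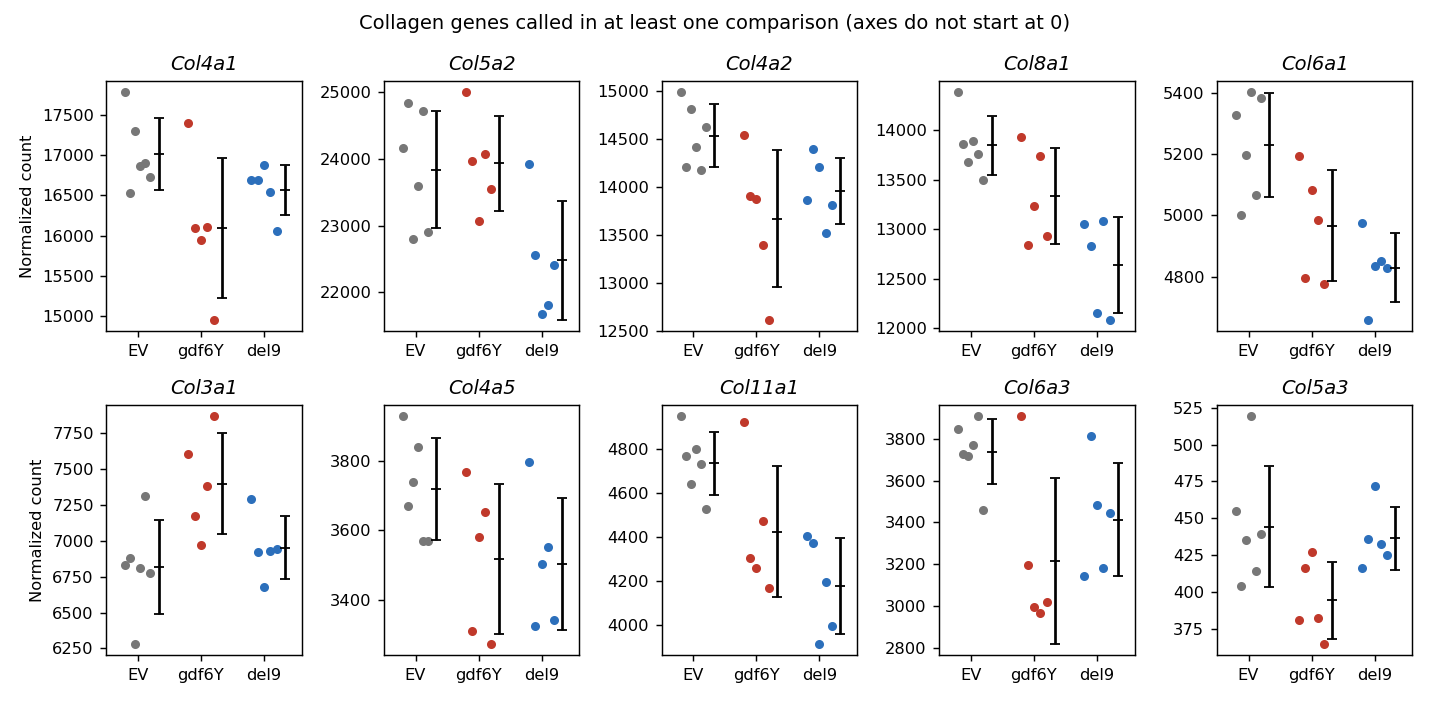
Normalized counts (vertical axes, not starting at 0) of the 10 collagen genes called in at least 1 comparison, with 1 point per sample for EV (n = 6), *gdf6Y* (n = 5) and del9 (n = 5), and a bar for the mean and SD. *Col3a1* is the gene with the *gdf6Y* samples at the top, 6974 to 7870, and the first *gdf6Y* point is the highest of its group in 8 of the panels.

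The comparison of *gdf6Y* with del9 asks what depends on an intact *gdf6Y* insert, and no collagen gene passed the threshold in it. Of 39 collagen genes tested in edgeR, 0 were higher and 0 lower, where 0.599% of 25878 genes were higher and 0.41% lower. DESeq2 also called 0 collagen genes, among 81 genes called in all. At an unadjusted p-value below 0.05 there were 5 higher and 3 lower, without a count of all genes at that threshold. The 3 lower were *Col5a3*, *Col6a3* and *Col4a3*, the last with 0 to 3 reads per sample and 0 in every *gdf6Y* sample. The 24 collagen genes with a mean of at least 10 counts had 15 positive and 9 negative log2 fold changes. Their median was 0.04, against -0.0042 over all genes at such counts. Among the 5471 genes with a mean of at least 1000 counts, 1.06% were higher and 1.43% lower, against 0 and 0 of 14 collagen genes. *Col5a2* came nearest: its *gdf6Y* counts were 24992, 23973, 23067, 24074 and 23553 in replicates 1 to 5, and replicates 1, 2 and 4 exceeded every del9 sample while the other two exceeded all but del9 replicate 1. Its log2 fold change was 0.10 (95% interval from 0.04 to 0.15, Benjamini-Hochberg adjusted p = 0.0641 by the quasi-likelihood test of edgeR). For *Col3a1* the log2 fold change was 0.09 (95% interval from 0.03 to 0.15, adjusted p = 0.115 by edgeR), for *Col11a1* 0.09 (0.02 to 0.15) and for *Col8a1* 0.08 (0.02 to 0.14). That of *Col6a3* was -0.08 with all samples (adjusted p = 0.379) and -0.16 without *gdf6Y* replicate 1 (adjusted p = 5.12e-04 by edgeR), where it passed. *Col5a2* passed against EV with del9 and not with *gdf6Y*. Between the inserts it passed in 4 of 8 other fits and in 2 of 10 that left out 1 sample, so that its call depends on the setting. Among those fits were total counts in place of the scaling used here and a gene-length offset added to it. A fit with the replicate number as a block, described at the end, gave 4 higher and 1 lower collagen genes in this comparison.

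**Figure D2:**
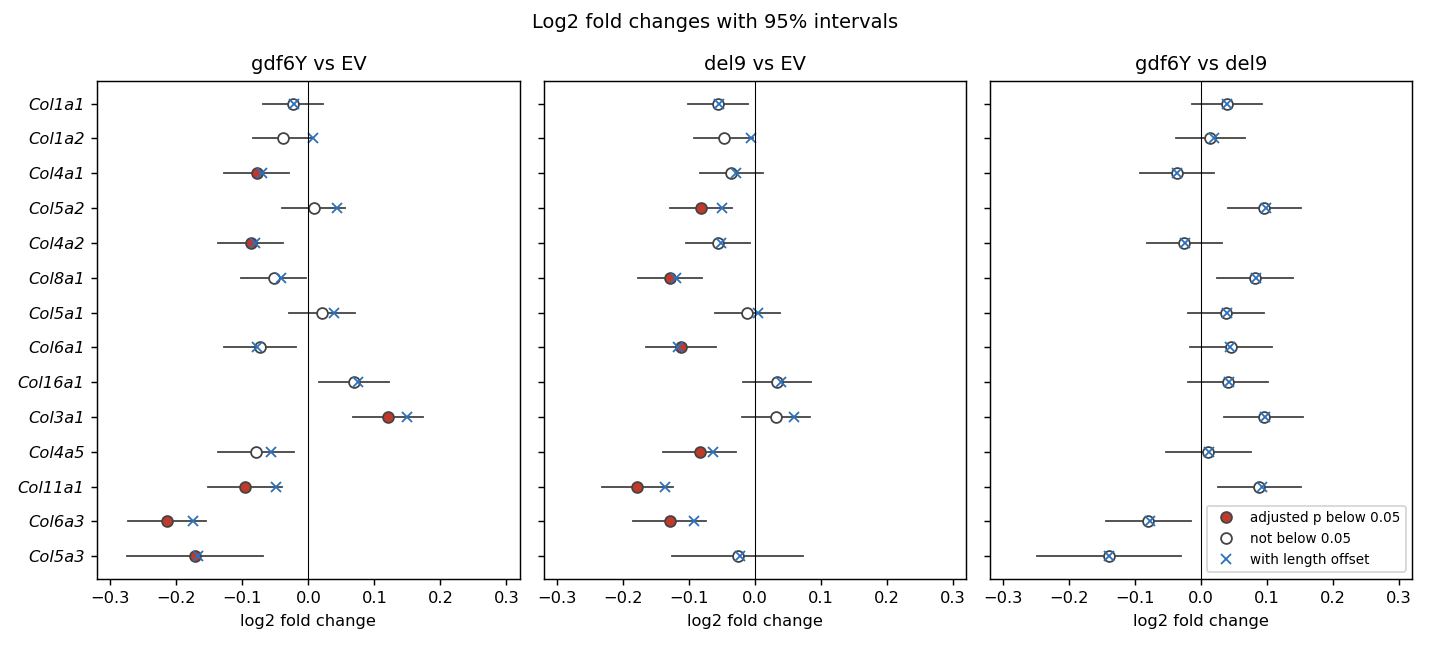
Log2 fold change (horizontal axis) of 14 collagen genes in the 3 comparisons, as circles with lines for 95% intervals, filled where the adjusted p-value is below 0.05, and as crosses with a gene-length offset in the model. The filled circles are 1 above and 5 below 0 in *gdf6Y* against EV, 6 below 0 in del9 against EV and none in *gdf6Y* against del9.

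With all samples, the scaling used here and no replicate block, the type I genes did not pass the threshold in any comparison. *Col1a1* had mean normalized counts of 52455 ± 1703 (SD, n = 6) in EV, 51555 with *gdf6Y* and 50350.0 with del9, and *Col1a2* 68543 ± 2120.3 (SD, n = 6), 66645 and 66223. The 95% interval of the log2 fold change of *gdf6Y* against EV ran from -0.07 to 0.02 for *Col1a1* and from -0.08 to 0.01 for *Col1a2*, and that of del9 against EV from -0.10 to -0.01 and from -0.09 to -0.0021, with adjusted p-values of 0.119 and 0.229 by edgeR. *Col1a1* was lower in del9 than EV past the threshold without del9 replicate 1 or 2 (adjusted p down to 0.025), and both genes were with total counts. *Col5a1*, the major type V chain, and *Col16a1* did not pass either. The intervals of *Col5a1* ran from -0.03 to 0.07 with *gdf6Y* and from -0.06 to 0.04 with del9, and those of *Col16a1* from 0.02 to 0.12 and from -0.02 to 0.09.

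Ratios of reads between chains that assemble into one molecule or fibril are given as a description, without a test. The ratio of *Col1a1* to *Col1a2* reads was 0.765 ± 0.0093 in EV, 0.774 ± 0.0257 with *gdf6Y* and 0.760 ± 0.0166 with del9 (SD over 6, 5 and 5 samples, as for the ratios that follow). The ratio of *Col4a1* to *Col4a2* was 1.17, 1.18 and 1.19, with SDs of 0.0172 to 0.0273. For *Col5a1* to *Col5a2* it was 0.448 ± 0.00815, 0.451 ± 0.0159 and 0.470 ± 0.0195, and for *Col6a1* to *Col6a2* 1.38 ± 0.0364, 1.32 ± 0.0274 and 1.33 ± 0.0172, with overlapping ranges in each. That of *Col3a1* to *Col1a1* was 0.130 ± 0.00414 in EV, 0.144 ± 0.0100 with *gdf6Y* and 0.138 ± 0.00554 with del9. Every *gdf6Y* sample, at 0.136 to 0.156, was above every EV sample, at 0.123 to 0.134. The del9 samples, at 0.132 to 0.146, overlapped both ranges. The ratio of *Col6a1* to *Col6a3* was 1.40 ± 0.0890 in EV, 1.56 ± 0.151 with *gdf6Y* and 1.42 ± 0.139 with del9, with overlapping ranges.

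Collagen genes are long, and fold changes against EV moved with length across all genes. The 25 collagen genes with a mean of at least 10 counts had a median exonic length of 7833 bases against 6145 for all 12551 genes of known length at such counts, and 7 of the 25 (28.0%) lay in the longest quintile. In *gdf6Y* against EV, the median log2 fold change was 0.05 in the quintile of genes up to 3215 bases and -0.04 in the quintile from 10077 bases upwards, and 1.15% and 19.8% of genes in them were lower in edgeR. In del9 against EV the medians were 0.05 and -0.03. Between *gdf6Y* and del9 they were 0.00 and -0.01. Over all genes, Spearman's rho between length and log2 fold change was -0.309, -0.235 and -0.0651 in these comparisons, as a description, since genes of a library share its depth and length trend.

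With a length trend of each library as an offset in edgeR's model, the rho became 0.032, 0.0308 and -0.0092, and *Col3a1*, *Col6a3*, *Col5a3* and *Col4a2* kept their calls in *gdf6Y* against EV. *Col3a1*, which is in the longest quintile, had a log2 fold change of 0.15 with the offset (Benjamini-Hochberg adjusted p = 9.86e-07 by the quasi-likelihood test of edgeR). *Col6a3*, in the same quintile, went to -0.17 (adjusted p = 1.69e-07 by edgeR). *Col11a1*, with 12799 bases of exons the longest of the called genes, went from -0.10 to -0.05 and lost its call (adjusted p = 0.431), and *Col4a1* missed the threshold at 0.0678. In del9 against EV, *Col11a1* (-0.14), *Col8a1* (-0.12), *Col6a1* (-0.12) and *Col6a3* (-0.09) kept their calls, and *Col5a2* (-0.05, adjusted p = 0.215) and *Col4a5* (-0.06, adjusted p = 0.163) lost them. Between *gdf6Y* and del9 the offset brought *Col5a2* to 0.10 with an adjusted p-value of 0.0303. The counts thus changed to 1 higher and 3 lower against EV with *gdf6Y*, 0 and 4 with del9, and 1 and 0 between the inserts.

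Promoter sequences are shown for *Col3a1* and *Col6a3*, whose calls in *gdf6Y* against EV held in every fit, and for *Col1a2*, the gene with the most collagen reads. The RefSeq promoter table (GRCm38.p6) holds 38 windows of 300 bases, from 250 before to 50 after a start site, for 35 of the 44 genes. The 250 bases before the start are printed 5′ to 3′ on the strand of the gene, located by exact match on GRCm39 at chr6:4505368-4505617 (+) for *Col1a2*, chr1:45350448-45350697 (+) for *Col3a1* and chr1:90771694-90771943 (-) for *Col6a3*, with capitals for matches on either strand to 1 of 6 motifs, which may overlap. These were the TATA box TATAAA, the box CCAAT, the Sp1 box GGGCGG, the AP-1 site TGANTCA, and as letters bound by Smad proteins the palindromes GGCGCC and GTCTAGAC.
Col1a2: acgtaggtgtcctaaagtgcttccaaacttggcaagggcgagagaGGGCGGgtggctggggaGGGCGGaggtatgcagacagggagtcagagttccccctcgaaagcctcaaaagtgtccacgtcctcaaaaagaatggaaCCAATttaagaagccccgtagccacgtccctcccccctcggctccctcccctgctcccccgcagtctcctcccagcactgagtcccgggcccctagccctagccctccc
Col3a1: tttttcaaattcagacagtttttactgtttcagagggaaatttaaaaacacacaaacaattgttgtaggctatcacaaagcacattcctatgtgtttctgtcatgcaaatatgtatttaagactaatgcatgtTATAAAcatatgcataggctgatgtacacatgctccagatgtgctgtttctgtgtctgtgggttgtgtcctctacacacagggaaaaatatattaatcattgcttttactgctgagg
Col6a3: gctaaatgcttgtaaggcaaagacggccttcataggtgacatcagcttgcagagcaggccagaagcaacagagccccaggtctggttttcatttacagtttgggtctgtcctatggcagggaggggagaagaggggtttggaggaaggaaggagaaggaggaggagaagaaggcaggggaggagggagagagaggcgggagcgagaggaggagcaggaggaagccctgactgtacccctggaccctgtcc
The stretch before *Col3a1* is 35.2% G and C with a TATAAA match, that before *Col1a2* is 62% with 2 GGGCGG matches and 1 CCAAT match, and that before *Col6a3* is 57.2% with no match. Matches were taken at any distance from the start, and whether the TATAAA match of *Col3a1* acts as a TATA box was not tested. Over all windows of 300 bases, TATAAA was in 5 of the 38 collagen windows and in 13.6% of the 32851 windows in the table, CCAAT in 13 and 37.4%, GGGCGG in 23 and 35.7%, TGANTCA in 1 and 7.81%, GGCGCC in 5 and 11.9%, and GTCTAGAC in 0 and 0.213%.

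Genes that modify, fold, export, cut, cross-link or bind collagen are shown for comparison, from a list of 48 of which 46 were tested. In edgeR, 1 was higher and 4 were lower in *gdf6Y* against EV, 2 and 1 in *gdf6Y* against del9, and 2 and 3 in del9 against EV. Over all genes tested, 1.7% were higher and 3.38% lower, 0.599% and 0.41%, and 4.82% and 4.43% in these comparisons, and among genes with a mean of at least 1000 counts 6.28% and 12.3%, 1.06% and 1.43%, and 17.2% and 11.6%. Most of the machinery was abundant and did not pass in any comparison: *Serpinh1*, the collagen chaperone of the endoplasmic reticulum, had 28968 ± 1479 normalized counts (SD, n = 6) in EV, 29865 with *gdf6Y* and 29025 with del9. The prolyl hydroxylase subunit genes *P4ha1* (8040.0, 8304 and 8027) and *P4ha2* (2157, 2285 and 2155), the lysyl hydroxylase gene *Plod2* (3556, 3617 and 3399) and the C-propeptide protease gene *Bmp1* (1362, 1366 and 1400.2) also did not pass. *Lox*, the founding lysyl oxidase, had a mean of 1.15 ± 1.14 normalized counts in EV, while its relative *Loxl1* had 3561 ± 80.4.

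*P4ha3*, a further subunit of the collagen prolyl hydroxylase, was the list member that rose with *gdf6Y* against each control. Its EV counts were 1311 at the lowest, 1381 in the median and 1513 at the highest, its *gdf6Y* counts were 1661, 1677, 1544, 1596 and 1629 in replicates 1 to 5, and its del9 counts were 1394, 1448, 1322, 1378 and 1506. Every *gdf6Y* sample lay above every control sample. Its log2 fold change from EV was 0.21 (SE 0.03, Benjamini-Hochberg adjusted p = 3.14e-07 by the quasi-likelihood test of edgeR) and that from del9 was 0.21 (SE 0.04, adjusted p = 1.77e-05 by edgeR). It passed in all 19 and 18 other fits of these comparisons, with values from 0.17 to 0.23. Between del9 and EV it was 0.01 (adjusted p = 0.959).

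The genes of the list that fell in *gdf6Y* against EV were *Sec24d*, a coat protein gene needed for procollagen export (log2 fold change -0.14, Benjamini-Hochberg adjusted p = 1.49e-04 by the quasi-likelihood test of edgeR), the collagen receptor genes *Mrc2* (-0.14, adjusted p = 6.1e-05) and *Ddr2* (-0.11, adjusted p = 0.00196) and the fibril-binding proteoglycan gene *Dcn* (-0.21, adjusted p = 0.0316). With the length offset, the call of *Dcn* was lost (adjusted p = 0.18 by edgeR) and the others were kept. The *Ddr2* samples with *gdf6Y* lay at 7129.6 to 7779.5 and those of EV at 7762 to 8297. Of these, *Sec24d* also fell with del9 (-0.11, adjusted p = 0.00154), as did the export gene *Sec23a* (-0.11, adjusted p = 0.00838) and the folding gene *Fkbp14* (-0.22, adjusted p = 1.13e-04 by edgeR). With del9, *Crtap*, part of the prolyl 3-hydroxylase complex, rose (0.15, adjusted p = 4.71e-05) with every del9 sample, 2232 to 2397, above every EV sample, 2040 to 2123, and the procollagen protease enhancer gene *Pcolce2* rose by 0.25 (adjusted p = 5.55e-04). Between *gdf6Y* and del9, the integrin gene *Itga2* was higher (0.71, adjusted p = 0.0351 by edgeR) at means of 32 and 19.7 normalized counts, and *Loxl1* was lower (-0.12, adjusted p = 0.0394).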

How the data were processed

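Poly(A) RNA of transfected TM4 cells was sequenced as strand-specific libraries with unique molecular identifiers. According to the methods and the submitters' processing notes, the authors used bcl2fastq 2.20.0.422 and UMI-tools, aligned reads to GRCm39 with STAR 2.7.10a, removed PCR duplicates and counted uniquely mapped reads per gene on its strand with featureCounts 2.0.3, discarding reads that overlap several genes. The deposited values are whole-number counts, without normalization. Replicates were not pooled.

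Gene positions, symbols and exon lengths were taken from GENCODE for GRCm39, another release than that used for counting, in which 56017 of 56748 identifiers were found. Tests used edgeR 4.0.16 under R 4.3.3 (TMM, genes with a count in any of the samples compared, quasi-likelihood test, 2 groups per model, no covariates, Benjamini-Hochberg adjustment over all genes, threshold 0.05). Intervals are 95% normal intervals. The length offset is a lowess curve (span 0.3) of each library's log2 deviation on exonic length. The steps were tested on simulated data.

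The members, lists and tests were chosen with earlier results of these data known. Named are the collagen genes called in any comparison, the 12 with the highest level in EV, members that make up counts of 5 or fewer and, of the processing genes, the called ones with the 5 smallest p-values per comparison and *Serpinh1*, *P4ha1*, *P4ha2*, *Plod2*, *Lox* and *Bmp1*; other members appear where a class is described. Alternatives were DESeq2 1.42.0, its size factors, total counts, filterByExpr, 1 model of all groups, the replicate number as a block, the length offset alone and with the block, and each sample left out in turn. Marker lists for granulosa, Leydig and germ cells had 1, 1 and 0 of 4, 5 and 3 genes at 10 or more normalized counts in EV. Exons of 3 collagen genes (*Col3a1*, *Col20a1* and *Col7a1*) overlap another gene on the same strand.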

Additional observations from a re-analysis of the deposited data

Results flagged for a closer look

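Dixon's test for a sample that stands apart from its group was run on 54 groups of values of the named collagen genes and of the class shares. Chance alone picks about 5% of groups, 2.7 here, and it picked 4. In *gdf6Y*, replicate 1 was picked for 3 of them: for *Col6a3*, at 3909 normalized counts against 2966 to 3198 in the other replicates, for *Col1a2*, at 71255 against 65037 to 66279, and for the share of all reads on collagen genes that are neither fibrillar nor basement membrane genes, at 0.138% against 0.127% to 0.129%. These groups share the sample, and *Col6a3* is part of the share. In del9, replicate 1 was picked for *Col16a1*, at 6671 normalized counts against 6124 to 6253. The log2 fold change of *Col1a2* against EV was -0.04 with *gdf6Y* replicate 1 and -0.06 without it (adjusted p = 0.12 by edgeR).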

How the results depend on the processing

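No collagen gene named here changed direction past the threshold under any alternative. The 5 lower genes of *gdf6Y* against EV became 2 with DESeq2, 1 with filterByExpr, 3 with all groups in one model, 3 with the length offset and 1 to 6 when 1 sample was left out (1 without EV replicate 1 or *gdf6Y* replicate 5, 6 without *gdf6Y* replicate 1); the 1 higher gene stayed at 1 when a sample was left out. The 0 higher genes of *gdf6Y* against del9 became 1 with total counts and with the length offset, in each case *Col5a2*, and 0 to 2 with a sample left out (2 without del9 replicate 1), and the 0 lower genes 0 to 1 (1 without *gdf6Y* replicate 1). The 6 lower genes of del9 against EV were 4 to 7 with a sample left out (4 without del9 replicate 3, 7 without del9 replicate 1), 7 with DESeq2 and 9 with total counts, and the 0 higher genes stayed at 0. The cause of these shifts was not tested.

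Over all genes, 261 calls between *gdf6Y* and del9 became 81 with DESeq2, 45 with filterByExpr and 160 to 441 with a sample left out (160 without del9 replicate 2, 441 without del9 replicate 1). The 1338 calls between *gdf6Y* and EV became 794 to 1751 (794 without *gdf6Y* replicate 5), and the 2425 between del9 and EV 1692 to 2715. The collagen genes with fewer than 10 normalized counts have too few reads at this depth to show changes of the size reported here. Levels per kilobase of the longest transcript instead of all exons differed by more than the SD for 11 of the 12 genes with the highest level.

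Replicate numbers are shared between groups in the labels. Samples with the same number deviated together in part: their correlations ran from -0.0147 to 0.180 between *gdf6Y* and EV, from 0.091 to 0.152 between *gdf6Y* and del9 and from -0.0377 to 0.152 between del9 and EV, and the own number correlated best in 3, 3 and 1 of 5 pairs, so that the numbers were not taken to pair the samples. With the replicate block, 8 collagen genes were lower in *gdf6Y* than EV, 4 were higher and 1 lower in *gdf6Y* than del9 (*Col5a2*, *Col8a1*, *Col3a1*, *Col11a1* and *Col6a3*), and 9 were lower in del9 than EV, among them *Col1a1* (adjusted p = 2.53e-04 by edgeR), *Col1a2* (0.00158) and *Col4a2* (0.037); over all genes, 2061 were called between *gdf6Y* and EV, 661 between *gdf6Y* and del9 and 2996 between del9 and EV. The block with the length offset gave 2 higher collagen genes in *gdf6Y* than EV, 4 in *gdf6Y* than del9 and 1 in del9 than EV, with 662 genes in all between *gdf6Y* and del9. EV replicate 6 has no partner and adds nothing to these fits of EV.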
